A study of Mus musculus with 21 samples.

Results

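Hearts of 4 control (*Notch3*+/+) mice were examined on their own to describe the transcriptome of the normal adult heart. The control libraries were those whose labels carry wt, 12 of the 21 libraries and 4 of the 7 mice of the study, with 3 technical libraries from each mouse. The mice had the C57BL/6J strain and were 10 to 14 months old by a figure legend of the study, and the sex of each mouse is not given. The tissue label is heart, while the protocol describes frozen pieces of the left ventricle. Polyadenylated RNA was amplified by PCR and sequenced, and the authors deposited read counts for 46517 Ensembl genes. The 3 technical libraries were summed, so the mouse was the unit, numbered here from control mouse 1 to control mouse 4. The names of the first 2 mice begin with X and those of the last 2 with k, with no meaning given for these letters. The libraries held 464390 to 2134368 counts (median 1196276.5, n = 12), which gave 3091461, 4638786, 4208205 and 3046326 counts in control mice 1 to 4.

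The working ventricle contracts without pause and draws most of its energy from fatty acids oxidised in mitochondria, with glucose, lactate, ketone bodies and amino acids as further fuels. Its cardiomyocytes carry muscle-specific members of gene families for the sarcomere, calcium handling and metabolism, and they share the tissue with endothelial cells, pericytes, smooth muscle, fibroblasts and macrophages. Levels were compared between genes as counts per exon base, scaled to a total of 1000000 in each mouse, and are called levels here. Differences between mice were measured on counts scaled to 1000000 per library with TMM factors, called CPM here. The wording of both rests on bulk RNA, in which fewer cells of a type and less RNA per cell cannot be told apart.

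A level of at least 1 was found for 17970, 17888, 18005 and 17837 genes in control mice 1 to 4, and 14828 genes reached it in every mouse, 12196 of them protein-coding. The higher levels were held by few genes, since 8834 genes reached a level of 10 in every mouse, 1695 reached 100 and 107 reached 1000. The 100 genes with the highest levels took 21.5%, 17.2%, 18.9% and 20.6% of the total level in the 4 mice, 19.6% ± 1.88 (SD, n = 4). This share was lowest in control mice 2 and 3, which had the most counts, and the part of depth was not tested. It was 23.2% in the smallest library of each mouse and 19.6% with counts thinned to the smallest mouse total. The 10 highest genes took 4.44% ± 0.520 and the 1000 highest 54.6% ± 2.02. Nuclear protein-coding genes together took 81.3% ± 1.06 of the level and long noncoding genes 5.40% ± 0.107. The long noncoding genes include *AY036118* and *Gm42418*, with mean levels of 4929 and 3034. Both lie in a stretch annotated with ribosomal RNA, so that share is not of long noncoding RNA alone. The mice resembled each other in the order of their genes, with correlations of log levels between pairs of mice of 0.956 to 0.967 across the 14828 genes.

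The 20 genes with the highest mean level were mostly encoded by the mitochondrial genome. The first 2 were the transfer RNA genes *mt-Tm* and *mt-Tq*, with levels of 5090 ± 603 and 5029 ± 380 (SD, n = 4), followed by *AY036118* at 4929 ± 948. They also held the transfer RNA genes *mt-Ti*, *mt-Tl1*, *mt-Te*, *mt-Tp* and *mt-Tv* and the ribosomal RNA genes *mt-Rnr2* and *mt-Rnr1*. Of the proteins made in mitochondria, *mt-Nd1*, *mt-Cytb*, *mt-Nd5*, *mt-Atp8*, *mt-Nd6* and *mt-Nd2* were among them, with *mt-Nd1* highest at 4374 ± 651. *CT010467.1* and *Gm42418* lie with *AY036118* in 1 stretch of chromosome 17 annotated with ribosomal RNA, and 100% of the 50-base stretches of *AY036118* are also in *Gm42418*. Only 2 nuclear protein-coding genes stood among the 20, the cardiac actin gene *Actc1* and *Ckmt2*, the mitochondrial creatine kinase of striated muscle. *Actc1* (chr2:114047282-114053548, GRCm38) had levels of 3458, 2652, 2916 and 3661 in control mice 1 to 4, and *Ckmt2* had 2845, 2317, 2444 and 2873. Transfer RNA genes are shorter than 200 exon bases, and such genes took 8.37% of the level but 0.223% of the counts, so their places rest on few bases. Mitochondrially encoded genes as a whole took 7.85% ± 0.739 of the level and 1.28% ± 0.194 of the counts.

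The nuclear genes that came next had several kinds of function. The 30 highest nuclear protein-coding genes are given by their values, chosen after these were seen beyond the first 20 genes of all kinds. *Tcap*, which caps titin at the Z-disc, had a level of 2592 ± 429 and *Mb*, the oxygen-binding myoglobin, 2367 ± 357. *Tnnc1*, the calcium sensor of the thin filament, had 2103 ± 274, *Myh6*, the fast myosin motor of the adult mouse ventricle, 2039 ± 296, *Pln*, the inhibitor of the sarcoplasmic calcium pump, 1973 ± 108, and *Mybpc3* 1959 ± 237. The genes below them included *Acaa2* for the last step of fatty acid oxidation, *Cox6a2* and *Cox8b* for cytochrome oxidase, *Atp5a1* for ATP synthase and *Ldhb* for lactate dehydrogenase, at 1957, 1928, 1686, 1917 and 1792. The 30 genes also held the glycolytic genes *Pgam2* and *Eno3*, the lysosomal protease gene *Ctsd* at 1661, the calcium-binding *S100a1* at 1593 and *Map1lc3a* of autophagy at 1482. *Actc1* was above *Ckmt2* in all 4 mice. *Cd36*, the fatty acid transporter, closed the 30 genes at 1431 ± 79.9. From *Ckmt2* down to *Cd36* the means of neighbours in this order differed by less than their SD between mice. That SD does not settle the order of neighbours within a mouse. *Mb* was above *Tnnc1* and *Atp5a1* above *Ldhb* in all 4 mice, while *Tcap* was above *Ckmt2* in control mice 1 and 2 alone. The order of neighbours is uncertain where it changed between mice.

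**Figure D1:**
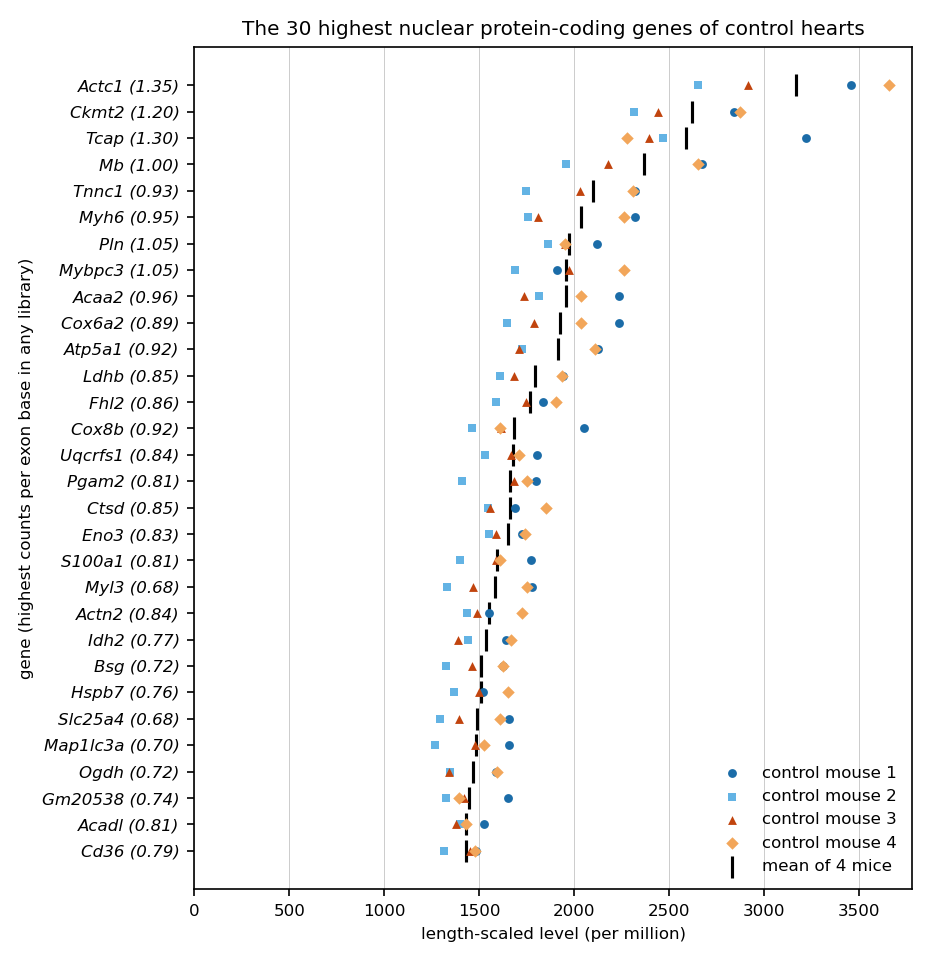
Levels of the 30 highest nuclear protein-coding genes in 4 control hearts, with the length-scaled level on the x axis, 1 point for each mouse and a bar at the mean. Numbers beside the names are the highest counts per exon base in any library, and *Actc1* at a mean of 3172 stands above the other genes.

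The order among these highest genes is limited by how the counts behaved. Among genes of at least 200 exon bases no library held more than 1.96 counts per exon base, and 118 genes, 111 of them protein-coding, exceeded 0.5. In control mouse 4 the deepest library had 3.11 times the depth of the shallowest, and their counts differed by a median of 3.85-fold in 6388 genes under 0.05 counts per exon base. The median was 2.76-fold in 243 genes at 0.2 to 0.5 counts per base, 2.02-fold in 65 genes at 0.5 to 1 and 1.41-fold in 13 genes at 1 to 2. Counts of the highest genes therefore rose less than depth, and their levels are compressed against those of other genes. The plot of the 30 genes shows the counts per base beside each name.

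Within the mitochondrial genome levels were set beside the sequence shared with other genes, after the levels were seen. *mt-Co2* had levels of 1.44, 2.01, 3.25 and 6.03, *mt-Co3* of 12.6, 8.79, 11.3 and 11.8, and *mt-Nd4l* of 43.1, 23.2, 37.4 and 41.6 in control mice 1 to 4, while *mt-Nd1* had 4945, 3633, 4021 and 4896. Of the 50-base stretches of *mt-Co2*, *mt-Co3*, *mt-Nd4l* and *mt-Atp6*, 100%, 99.9%, 98.8% and 99.5% are also found in annotated transcripts of other genes, chiefly *Gm28661*, *Gm28437*, *Gm10222* and *Gm10925*. The share was 0% for *mt-Nd1*, *mt-Cytb*, *mt-Atp8* and *mt-Nd6*. It was 51.1% for *mt-Co1* and 62.2% for *mt-Nd4*, which had high levels of 2160 and 1603. With stretches of 100 bases the shares of the first 4 genes were 99.5%, 99.9%, 98.5% and 99.5%. The read length is not given in the sources used here, so both lengths are choices made after the values were seen. Low values of genes shared almost in full, such as *mt-Co2*, are not readable as low abundance, and what the counting did with reads that match more than 1 gene is not given.

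*mt-Nd3*, which encodes a subunit of complex I, was the 1 called gene among the 10 tested protein genes of the mitochondrial genome, of which 7 had an unadjusted p under 0.05. Over all tested genes 488 of 11861 (4.11%) were called, at an FDR under 0.05 and at least 1.5-fold, and 1756 had an unadjusted p under 0.05. DESeq2 and limma-voom also called 1 of the 10, and 6 of 13 were called with every gene that had a count in the test. The CPM of *mt-Nd3* was 28.4, 24.7, 3.29 and 6.73 in control mice 1 to 4, 8.47-fold from highest to lowest (FDR 3.13e-06, edgeR). *Gm28438*, a pseudogene of 345 exon bases on chromosome 1, had 1.52, 1.64, 32.5 and 27.8 CPM and so stood high in the mice in which *mt-Nd3* was low. *mt-Nd3* shares 98.0% of its 50-base stretches with *Gm28438*, and *Gm28438* shares 99.0% with *mt-Nd3*. Whether reads were divided differently between the genes in the X-labelled and k-labelled mice was not tested.

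Across 624 genes of the lists and families used here and of the highest and most variable genes, the median share of 50-base stretches found in other genes was 0.273%, and 62 genes exceeded 25%. The count was 42 of 617 genes with stretches of 100 bases. Among those over 25% with 50 bases were *Cpt1b* at 78.6%, *Pln* at 56.2%, *Nppa* at 53.4%, *Hspa1a* at 66.3%, *Hba-a1* at 72.3% and *Hbb-bs* at 53.2%. So were *Ccl21a* at 71.6%, *Bckdha* at 49.6%, *Etfb* at 44.8%, *Fabp3* at 37.3%, *Ly6c1* at 32.8% and *Ctsd* at 32.4%. The levels of all 62 genes carry this limit wherever they are given. The strand of the libraries is not given either, so genes that overlap on opposite strands, such as *Xist* and *Tsix*, cannot be separated.

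The label heart was checked against markers of cell types and other organs, and the ventricular cardiomyocyte markers led. The 12 genes of that list, all with a level over 10, summed to 19948, 15772, 17286 and 20173 in control mice 1 to 4, 18295 ± 2132 (SD, n = 4), or 1.83% of the total level. Of these genes 9 exceeded 0.5 counts per exon base, where levels are compressed, and without such genes the mean sum was 1529. The sum was higher the fewer counts a mouse had. The part of depth in its spread between mice was not tested. The 7 atrial cardiomyocyte markers summed to 135, 126, 597 and 293. *Nppa*, the atrial natriuretic peptide that stressed ventricles also make, accounted for 256 ± 227 of their mean of 288, *Myl7* and *Sln* had 15.2 ± 10.6 and 6.38 ± 5.36, and *Bmp10* had no count. The 6 conduction system genes summed to 21.3 ± 1.96, led by *Tbx3* at 13.2 ± 1.00, and *Isl1* had no count. Genes of the ventricular cardiomyocyte list were thus high and atrial markers low. That list also holds general cardiomyocyte genes such as *Ttn* and *Actn2*, so its sum does not by itself separate ventricle from atrium. The lists hold no marker that separates left from right ventricle.

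Vascular and stromal markers were present at lower sums than those of cardiomyocytes. Fibroblast markers summed to 2110 ± 212, with *Gsn* at 1280 ± 151 and *Dcn*, a small matrix proteoglycan, at 272 ± 24.8, so that most of the sum was *Gsn*. The median member had a level of 49.7 in the fibroblast list, below 96.4 in the endothelial and 78.5 in the pericyte list. Endothelial markers summed to 1204, 1166, 1276 and 1538 and were led by *Ly6c1* at 198 ± 9.90, *Esam* at 196 ± 25.5 and *Cldn5* at 182 ± 78.2. Pericyte markers summed to 926 ± 39.2, with *Rgs5* at 367 ± 17.5 and *Abcc9*, a subunit of a potassium channel, at 168 ± 13.4. Vascular smooth muscle markers summed to 632 ± 109, led by *Smtn* and *Acta2* at 291 ± 26.1 and 178 ± 65.2. Lymphatic endothelial markers summed to 170 ± 13.8, with *Prox1*, *Ccl21a* and *Lyve1* at 45.3, 40.5 and 37.1.

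Blood and macrophage markers had sums in the same range. Erythroid markers summed to 1466 ± 236, led by the globin gene *Hbb-bs* at 656 ± 110, and macrophage markers to 1117 ± 124, led by *Lyz2* at 452 ± 51.9, *C1qb* at 244 ± 45.2 and *C1qa* at 205 ± 26.2. The other immune lists were far lower, with 37.6 ± 9.24 for B cells, 15.6 ± 6.01 for T and NK cells, 16.1 ± 5.50 for mast cells and 11.9 ± 5.96 for neutrophils, in which *Ly6g* and *Mpo* had no count. Schwann cell markers summed to 49.9 ± 13.2, with *Cnp* at 34.8 of it.

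Markers of other tissues were mostly low, and several were uneven between mice. The 9 skeletal muscle genes summed to 10.4 ± 3.94, with *Myh2* at no count. Mesothelial markers, of the layer that covers the heart, summed to 5.58, 8.67, 50.9 and 53.0. Hepatocyte markers summed to 85.0, 248, 23.8 and 54.9, with albumin (*Alb*) at 28.6, 113, 3.16 and 14.1. Lung epithelial markers summed to 2.79, 38.3, 1.11 and 5.66, and *Scgb1a1*, a secretory protein of the airways, had 21 counts in control mouse 2 and 0 in the other 3 mice. Adipocyte markers summed to 2.22, 4.01, 0.921 and 23.0. Control mouse 2 thus had the highest sums of hepatocyte and lung markers, control mouse 4 of adipocyte markers, and the k-labelled mice of mesothelial markers. No gene of the lung or adipocyte list had enough counts to be tested. The median lung member had a level of 1.26 in control mouse 2, and the median adipocyte member 3.33 in control mouse 4.

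**Figure D2:**
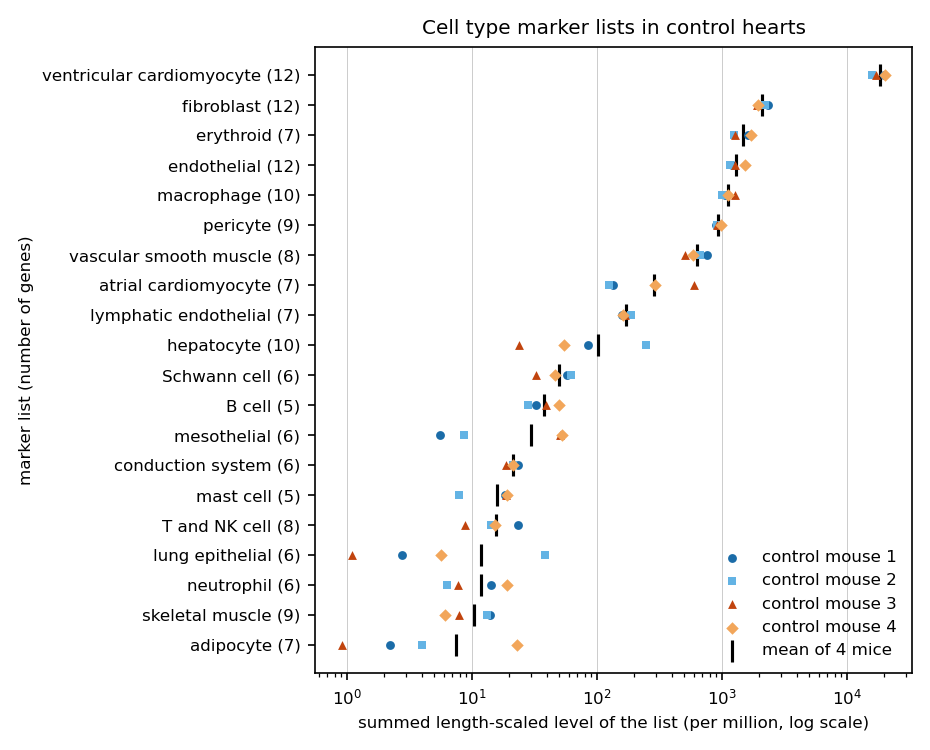
Summed levels of 20 marker lists in 4 control hearts, with the summed level on a log scale on the x axis, 1 point for each mouse and a bar at the mean. Ventricular cardiomyocyte markers at a mean of 18295 stand highest, and mesothelial, hepatocyte, lung epithelial and adipocyte lists spread most between mice.

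Genes of energy metabolism were abundant, with a level of the median member of 592 for fatty acid oxidation and 659 for glycolysis. The 18 genes of mitochondrial fatty acid oxidation summed to 14392.5, 13083, 12549 and 13583, 13402 ± 784 (SD, n = 4), with *Acaa2*, *Acadl*, *Acadvl* and *Etfb* at 1957, 1434, 1291 and 1267. The 15 genes of glycolysis summed to 11984.5, 10536, 10877 and 12322, 11430 ± 858, with *Ldhb*, *Pgam2*, *Eno3* and *Aldoa* at 1792, 1661, 1653 and 1362. The ratio of these sums was 1.20, 1.24, 1.15 and 1.10, 1.17 ± 0.0602, above 1 in all 4 mice. The sums hold different numbers of genes, and 6 and 5 members exceeded 0.5 counts per exon base, so the ratio describes these lists and is not a ratio of fluxes.

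Uptake of fatty acids and the steps after oxidation were also read from lists. Fatty acid uptake and binding summed to 4389 ± 302, led by *Cd36* at 1431 ± 79.9, *Fabp3*, the fatty acid-binding protein of heart, at 1384 ± 191 and the lipase *Lpl* at 623 ± 35.3. The tricarboxylic acid cycle summed to 11981 ± 749, led by *Ogdh* at 1469 ± 143 and *Sdhd* at 1308 ± 48.2. Nuclear subunits summed to 21922.5 ± 2408 for complex I over 36 genes, 8876 ± 826 for complex III, 11521 ± 1529 for complex IV and 9720 ± 1057 for ATP synthase. The highest members of these were *Ndufb9* at 1292, *Uqcrfs1* at 1679, *Cox6a2* at 1928 and *Atp5a1* at 1917. The 13 protein genes of the mitochondrial genome summed to 26227 ± 3662, within the limit given for *mt-Co2* and its neighbours.

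Further lists covered other fuels, energy transfer and regulators. Glucose uptake and glycogen genes summed to 3785 ± 92.3, led by the muscle glycogen phosphorylase *Pygm* at 1390 ± 90.4 and by *Pygb* at 826 ± 36.1. Pyruvate dehydrogenase with its kinases and phosphatases summed to 4919 ± 177, led by *Pdha1* at 998 ± 43.6 and *Pdk2* at 935 ± 73.6. Ketone body oxidation summed to 2310 ± 163 with *Oxct1*, the enzyme that activates ketone bodies outside the liver, at 969 ± 67.9, and branched-chain amino acid oxidation to 2778 ± 196 with *Bckdha* at 923 ± 67.9. Creatine and adenylate phosphotransfer, which carries energy from mitochondria to the sarcomere, summed to 7128 ± 652, and *Slc25a4*, *Ak1* and *Ckm* followed *Ckmt2* at 1489, 1235 and 1226. Nuclear regulators of energy metabolism were lower at 556 ± 32.8, led by the coactivator *Ppargc1a* at 116 ± 18.5 and the receptor *Ppara* at 84.5 ± 15.2.

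The sarcomere and its calcium supply stood beside metabolism. The 22 sarcomere genes summed to 26377, 21744, 24515 and 26740, 24844 ± 2285, or 2.48% of the level. Of these genes 11 exceeded 0.5 counts per exon base, where levels are compressed. This sum too was higher the fewer counts a mouse had, and the part of depth was not tested. Calcium handling genes summed to 5834 ± 262, with the calcium pump *Atp2a2* at 1293 ± 109, the calcium store protein *Casq2* at 1136 ± 53.8 and *Hrc* at 754 ± 66.9 after *Pln*. Ribosomal protein genes summed to 3308 ± 305, with *Rpl4* at 604 ± 37.2.

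Isoform choice was read as the share of each gene in the summed level of its family, over 60 families with 228 genes. In 57 families the same member led in 4 of 4 mice, and the leading member had a median share of 75.1%. It exceeded 90% in 21 families, lay between 50% and 90% in 33 and under 50% in 6. In 29 families the leading member exceeded 0.5 counts per exon base, so its share is compressed. The exceptions to a constant leader were the myomesins, the uncoupling proteins and the oestrogen-related receptors. *Myom1* had 46.6%, 49.1%, 54.9% and 54.9% against 52.9%, 50.5%, 45.0% and 44.6% for *Myom2*. *Ucp2* had 69.8% and 72.6% in control mice 1 and 2 and 43.9% and 42.1% in control mice 3 and 4, where *Ucp3* led with 55.7% and 57.5%. *Esrra* had 46.5%, 51.2%, 37.7% and 42.6% against 39.1%, 34.6%, 43.9% and 36.4% for *Esrrg*, which led with 44.5% on counts without division by length.

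Sarcomere families were led by their cardiac members. *Myh6* held 94.7%, 91.3%, 85.2% and 93.1% of the sarcomeric myosin heavy chains, and *Myh7*, the slow myosin of the fetal mouse ventricle, 3.73%, 6.43%, 13% and 5.41%. *Tnni3* held 99.7% ± 0.240 of troponin I, *Tnnt2* 95.7% ± 1.00 of troponin T, *Tnnc1* 99.9% ± 0.0282 of troponin C and *Mybpc3* 98.4% ± 0.738 of myosin-binding protein C. *Myl2* and *Myl3*, the ventricular light chains, held 92.1% ± 1.71 and 88.8% ± 1.66 of their families, with *Myl9* and *Myl1* second. *Actn2* held 92.8% ± 0.281 of the alpha-actinins, ahead of *Actn4*. The choice was less strict for tropomyosin, with *Tpm1* at 66.4% ± 5.63 and *Tpm4* at 27.5% ± 4.84, and for actin. *Actc1* held 67.6%, 55.8%, 49.7% and 60.5% of the actins and the skeletal muscle gene *Acta1* 6.08%, 18.6%, 29.8% and 17.2%.

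The myosin heavy chain genes carry microRNAs in their introns, and the mature sequences are shown because the hosts had such unequal shares. Capitals mark the seed, bases 2 to 8, which is the same for the first 2 sequences.
mmu-miR-208a-3p: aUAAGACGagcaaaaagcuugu
mmu-miR-208b-3p: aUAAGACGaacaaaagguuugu
mmu-miR-499-5p: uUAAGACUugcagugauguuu
They lie inside *Myh6* (chr14:54949072-54949093, minus strand), *Myh7* (chr14:54975710-54975731, minus strand) and *Myh7b* (chr2:155622893-155622913, plus strand) in RefSeq on GRCm38.p6. Their hosts had levels of 2039 ± 296, 156 ± 82.3 and 38.4 ± 3.49, and the mature microRNAs were not measured by these libraries.

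Most calcium-handling families also had 1 dominant member. *Atp2a2* held 97.9% ± 0.363 of the calcium pumps, *Pln* 99.7% ± 0.252 against sarcolipin (*Sln*), *Ryr2* 99.1% ± 0.430 of the ryanodine receptors, *Casq2* 98.4% ± 0.671 of calsequestrin and *Slc8a1* 97.2% ± 1.44 of the sodium-calcium exchangers. Among channels *Cacna1c* held 63.8% ± 2.88 with *Cacna1s* second at 24.5% ± 2.17. *Gja1* held 74.0% ± 6.01 of the connexins with *Gja4* second. *Atp1b1* led the beta subunits of the sodium pump with 66.0% ± 1.44. *Camk2g* led CaM kinase II with 35.2% ± 2.67, but *Camk2d* led with 51.7% on counts without division by length and with 44.9% on the longest transcript.

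Families of fuel metabolism were led by muscle isoforms in most cases. *Cpt1b* held 95.9% ± 0.863 of carnitine palmitoyltransferase 1, *Slc27a1* 92.0% ± 1.26 of the fatty acid transport proteins, *Acsl1* 84.7% ± 2.06 of the long-chain acyl-CoA synthetases and *Fabp3* 87.2% ± 1.66 of the binding proteins, ahead of *Fabp4*. *Slc2a4*, the insulin-responsive glucose transporter, held 82.7% ± 3.14 and *Slc2a1* 8.14% ± 1.85. *Hk2* led the hexokinases with 57.6% ± 5.51 ahead of *Hk1* with 22.7% ± 3.26. *Pfkm*, *Aldoa*, *Eno3* and *Pgam2* held 86.0% ± 1.73, 93.5% ± 3.27, 94.4% ± 0.456 and 88.5% ± 2.62 of their families. *Ldhb*, the form typical of heart, held 70.8% ± 1.20 and *Ldha* 29.2% ± 1.20. *Pdk2* held 59.3%, 54.9%, 61.7% and 69.4% of the pyruvate dehydrogenase kinases and *Pdk4* 33.8%, 36.4%, 29.3% and 22.8%. *Ckmt2* and *Ckm* held 65.3% ± 0.562 and 30.6% ± 0.288 of the creatine kinases.

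Among respiratory chain subunits, the muscle forms *Cox6a2*, *Cox7a1* and *Cox8b* led their families on length-scaled levels. *Cox6a2* held 83.5% ± 2.01, *Cox7a1* 62.5% ± 1.11 and *Cox8b* 70.0% ± 1.61, with *Cox6a1*, *Cox7a2* and *Cox8a* second, and *Cox7a2* led with 51.5% on counts without division by length. *Cox4i1* held 95.8% ± 0.698, *Slc25a4* 76.1% ± 2.23 of the adenine nucleotide translocators and *Atp5g3* 55.6% ± 0.764 of ATP synthase subunit c. These shares differed by a few percent between mice.

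Regulatory families were more mixed. *Ppara* held 77.7% ± 2.65 of the PPAR receptors, *Gata4* 70.0% ± 7.94 of the GATA factors, *Tead1* 70.0% ± 4.53 of the TEAD factors and *Mef2d* 53.9% ± 2.17 of the MEF2 factors, where *Mef2a* led with 44.0% on counts without division by length and with 44.8% on the longest transcript. *Nppb*, the natriuretic peptide of the ventricle, held 53.5%, 72.3%, 59.9% and 73.7% against 46.0%, 27.5%, 40.1% and 26.3% for *Nppa*. *Kdr* led the VEGF receptors with 60.2% ± 9.98 ahead of *Flt1*, and *Pdgfrb* the PDGF receptors with 72.0% ± 2.36. *Cav1* and *Hspb7* led the caveolins and small heat shock proteins with 46.8% ± 2.25 and 24.3% ± 0.835, and on the longest transcript *Cryab* led with 22.7% ahead of *Hspb7* with 21.6%.

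*Notch3* (chr17:32120820-32166852, GRCm38), a receptor of vascular mural cells, had levels of 21.2, 17.0, 22.4 and 23.6 in control mice 1 to 4. It held 31.7% ± 2.58 of the Notch receptors, *Notch1* 25.6% ± 2.07 and *Notch4* 25.2% ± 1.94. The lead of *Notch3* holds for the union of exons as length, since *Notch1* led with 36.0% on counts alone and with 32.2% on the longest transcript. Between the mice *Notch3* had 57.2, 45.5, 57.4 and 58.0 CPM, which did not pass the test (1.35-fold, FDR 0.727).

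**Figure D3:**
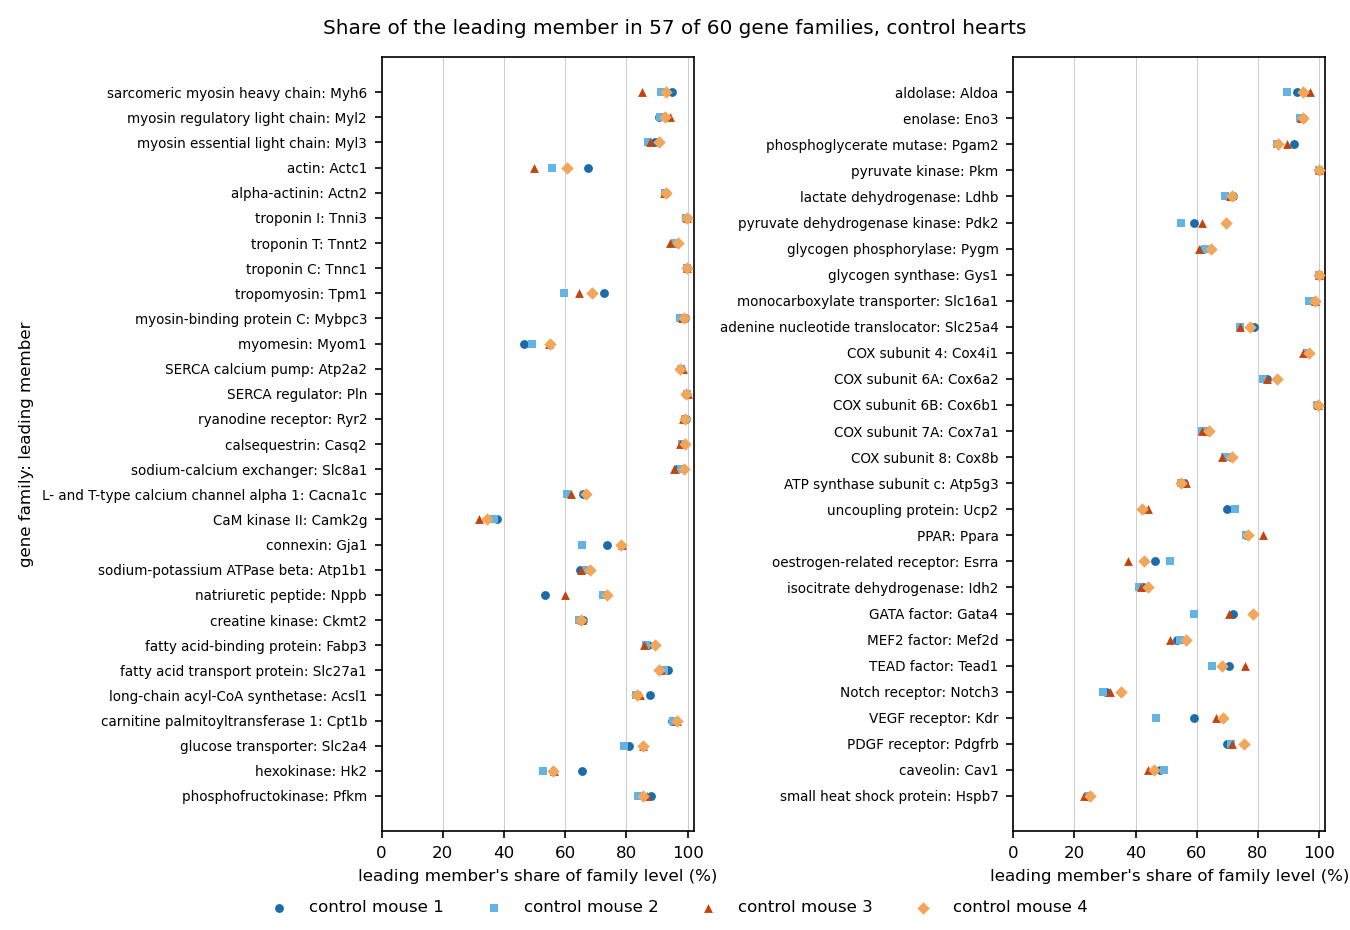
Share of the leading member in 57 of the 60 gene families, with percent of the family's summed level on the x axis and 1 point for each of 4 control mice. *Tnni3*, *Tnnc1* and *Atp2a2* lie near 100% in every mouse, and *Ucp2* has the widest spread, from 42.1% to 72.6%.

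Spread between mice was tested against spread between technical libraries of 1 mouse, in edgeR's quasi-likelihood test with 3 degrees of freedom over 11861 genes. Genes with an FDR under 0.05 and at least 1.5-fold between the highest and lowest mouse were called, 488 genes or 4.11%, and 1756 genes had an unadjusted p under 0.05. The error is technical, so the p-values speak of these 4 hearts and do not extend to other mice. The median fold from highest to lowest mouse was 2.65 in called genes and 1.41 in all tested genes, and 41 called genes reached 10-fold. Control mouse 2 was highest in 177 called genes, and each of the other mice in 101 to 108. Both X-labelled mice stood on the same side of both k-labelled mice in 297 called genes (60.9%), with the X-labelled mice above in 159 and the k-labelled mice above in 138. The same held for 3905 of all 11861 tested genes (32.9%). With only the X-labelled mice 132 genes were called and with only the k-labelled mice 25, and with counts thinned to the smallest library 93.

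Most of the spread lay between technical libraries. As variance components the SD of mice was a median of 0.08 on the log2 scale and that of libraries of 1 mouse 0.34, so that mice accounted for a median of 5.83% of the variance of a gene. That median was 0% without replicate 1 and 26.5% without replicate 3, so it is not a stable measure. Technical libraries of 1 mouse correlated at 0.922 to 0.948 across genes.

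Several lists of muscle and metabolism had no called gene, as did others such as ribosomal proteins. In edgeR 0 of 12 ventricular cardiomyocyte markers, 0 of 18 genes of fatty acid oxidation, 0 of 15 of glycolysis, 0 of 16 of the tricarboxylic acid cycle and 0 of 36 of complex I were called. The counts at an unadjusted p under 0.05 were 8, 0, 2, 1 and 6, where all tested genes had 1756 of 11861, and DESeq2 and limma-voom also called 0 in each of these lists. The 16 lists of at least 8 tested genes with no call held 224 list entries, 33 of them at an unadjusted p under 0.05. With every gene that had a count in the test 5 of the ventricular cardiomyocyte markers were called, and without replicate 3 6 of the complex I genes. Over all metabolic lists 5 of 199 tested genes were called (2.51%), against 17 of 89 cell type markers (19.1%), 38 of 114 genes of other programmes (33.3%) and the 4.11% of all tested genes. With at least 10 counts required in every library these were 4 of 195, 7 of 62 (11.3%) and 22 of 88, and no mesothelial, hepatocyte or sex-linked gene was left in the test. The share of the metabolic lists was thus close to that of all genes. The median SD of the 4 mouse means, which still holds technical spread, was 0.18 on the log2 scale in metabolic genes, 0.22 in all tested genes and 0.15 in those of at least 100 CPM. Among genes of at least 1000 CPM 0 of 82 were called, with 17 at an unadjusted p under 0.05, and these lie where counts rose less than depth.

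**Figure D4:**
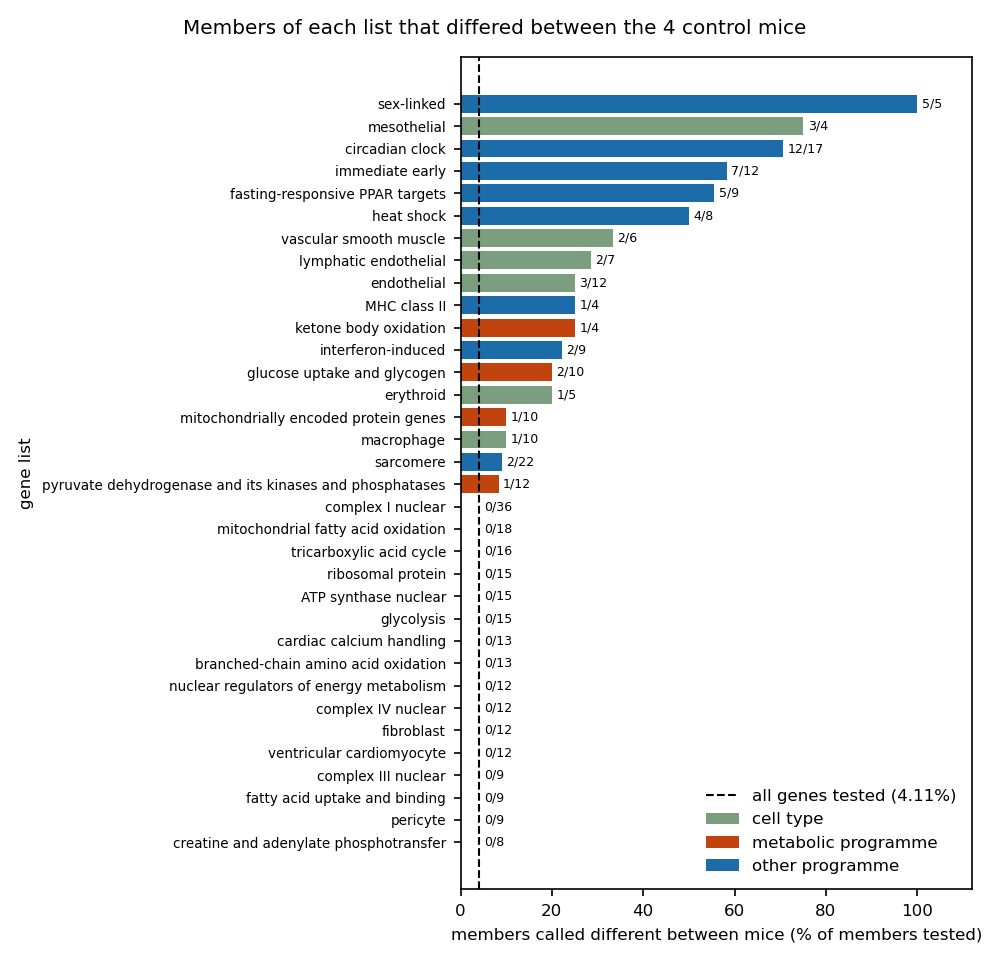
Percent of tested members called different between the 4 control mice, for 34 lists with at least 4 tested genes, with called and tested genes beside each bar and a dashed line at the 4.11% of all genes. Sex-linked, mesothelial, clock, immediate early, fasting-responsive and heat shock lists stand highest, and every other list shown with a called gene also lies above the line. Genes low in most mice enter the test when 1 mouse is high.

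The circadian clock list held the largest number of called genes. The clock is a feedback loop in which the activators *Arntl*, *Clock* and *Npas2* drive *Per*, *Cry*, *Nr1d1*, *Dbp* and related genes, whose products act back on the loop, and in heart many of these RNAs cycle over the day. In all 12 of 17 tested members were called (70.6%), with a median fold of 2.80 over the list against 1.41 over all genes. *Arntl* had 4.86, 11, 47 and 71.2 CPM in control mice 1 to 4, 14.2-fold from lowest to highest (FDR 4.43e-11). *Npas2*, its relative in the activator arm, had 5.04, 0.57, 7.35 and 13.8 CPM (FDR 0.00167). Both k-labelled mice were above both X-labelled mice in these activators.

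The other 10 called members were lowest in control mouse 4. *Ciart* had 38.7, 56.1, 16.1 and 3.17 CPM (16.2-fold, FDR 1.02e-08), *Per2* 29.2, 46.6, 15.1 and 3.93 (14.5-fold, FDR 1.75e-06) and *Dbp*, a transcription factor of clock output, 62.6, 62.1, 26.5 and 8.44 (6.73-fold, FDR 3.13e-08). Control mice 1 and 2 were highest and control mouse 4 lowest in each of these 3 genes. *Per3* had 113, 104, 53.7 and 30.4 CPM and *Hlf* 35.5, 34.3, 12.5 and 9.27, in the same arrangement. The most abundant member, *Nr1d1*, had 570.4, 365, 348 and 276 CPM (2.07-fold, FDR 0.000765). *Per1*, *Nr1d2*, *Tef* and *Bhlhe40* were also called, and *Clock*, *Cry1*, *Cry2* and *Bhlhe41* were among those not called. *Cry1* had 19.6, 30.9, 31.2 and 37.1 CPM, lowest in control mouse 1 and highest in control mouse 4 as *Arntl* was. With only the X-labelled mice 0 of 16 members were called and with only the k-labelled mice 2 of 17, in fits that lose calls by using fewer mice. DESeq2 and limma-voom each called 11 of the 17, and 6 of 11 were called with at least 10 counts required in every library. The mice lived in a cycle of 12 h light and 12 h dark, while the time of day at which hearts were taken is not given, and its part in these values was not tested.

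**Figure D5:**
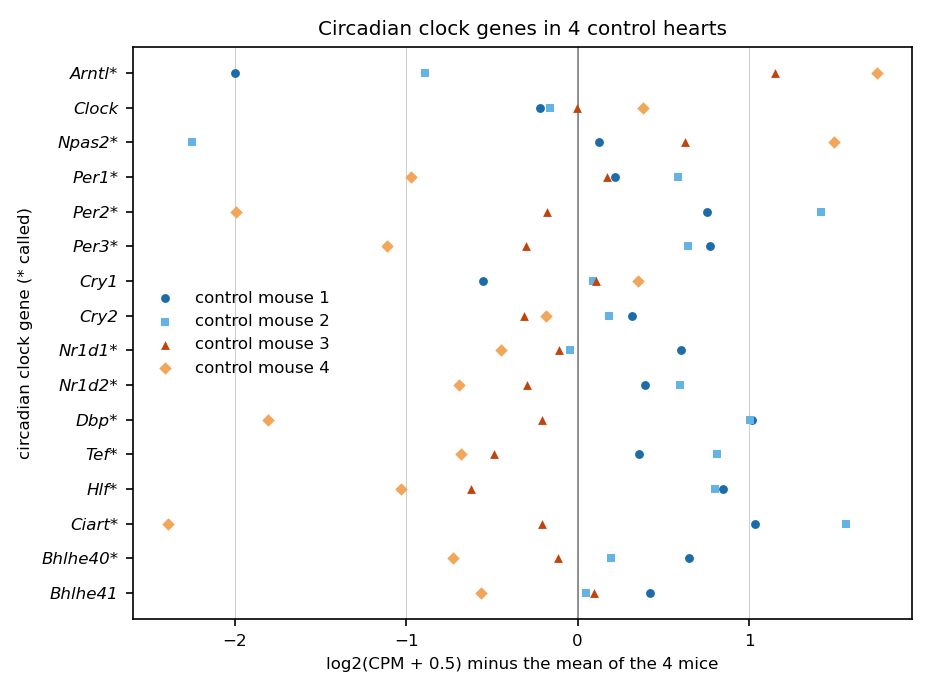
16 circadian clock genes in 4 control hearts, with log2 of CPM + 0.5 minus the mean of the 4 mice on the x axis, 1 point for each mouse and an asterisk at the 12 called genes. *Arntl* is high and *Per2*, *Dbp* and *Ciart* are low in control mouse 4, and control mice 1 and 2 lie on the opposite side.

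Clock activators bind E-boxes, and the 250 bases before the start of each gene were searched for CACGTG, which reads the same on both strands. The motif was in 1978 of 32851 windows of all genes (6.02%) and in 6 of the 19 windows of the 14 clock genes found in the table (31.6%), those of *Per1*, *Cry1*, *Tef*, *Ciart* and *Bhlhe41*. Windows around it are shown for 4 of these genes, with the motif in capitals, since these genes ran against *Arntl* between the mice or are core parts of the loop.
Per1: agcacccaagtcCACGTGcagggatgtgtg
Ciart: cgtgcagaaccgCACGTGtctgggaggggg
Tef: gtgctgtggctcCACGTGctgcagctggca
Cry1: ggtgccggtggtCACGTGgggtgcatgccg
They lie at chr11:69098771-69098800 (plus strand), chr3:95882255-95882284 (minus strand), chr15:81802534-81802563 (plus strand) and chr10:85185097-85185126 (minus strand) in RefSeq on GRCm38.p6. A match describes the letters of the window and says nothing of binding in these hearts.

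Immediate early genes, which respond within minutes to stimulation or handling of tissue, were called in 7 of 12 members (58.3%). *Fos* had 1.33, 3.02, 21.6 and 16.2 CPM (15.3-fold, FDR 5.34e-05) and *Nr4a1* 48.4, 68.7, 192 and 106 (3.99-fold, FDR 1.51e-08), both higher in both k-labelled mice. *Egr1* had 23.9, 11.9, 35.0 and 71 CPM with the same grouping of the means. Its libraries had 23.8, 58.2 and 22.9 CPM in control mouse 3 and 25.7, 26.3 and 19.5 in control mouse 1. The place of control mouse 3 above control mouse 1 thus rests on the library with 58.2. *Zfp36*, which speeds the decay of messenger RNAs, was instead highest in control mouse 2, with 23.4, 85.1, 43.9 and 38.7 CPM. *Jun*, *Dusp1* and *Btg2* were called with folds of 1.79, 1.81 and 2.17. With counts thinned to the smallest library 1 of 10 members was called, and with only the X-labelled or only the k-labelled mice 1 of 11 and 0 of 12.

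Heat shock genes marked control mouse 3. The inducible chaperone gene *Hspa1a* had 2.72, 4.13, 56.6 and 5.34 CPM (20.6-fold, FDR 6.96e-12) and its partner *Dnajb1* 34.1, 64.8, 146 and 58.7 (4.25-fold, FDR 3.21e-08). *Hsp90aa1* and *Hsph1* were called with folds of 2.17 and 2.06, also highest in control mouse 3, which made 4 of 8 tested members (50.0%). Without control mouse 3, 0 of 7 members were called. The abundant chaperones *Hspb1*, *Hspd1*, *Hspa8* and *Hspe1* had levels of 392 ± 51.0, 386 ± 13.3, 254 ± 16.3 and 222 ± 45.6 and were not called.

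Targets of PPAR receptors that respond to fasting were called in 5 of 9 members (55.6%). *Pdk4*, which restrains glucose oxidation, had 638, 673, 427 and 399 CPM (1.70-fold, FDR 0.00534), and *Ucp2* had 268, 264, 132 and 139 (2.05-fold, FDR 9.82e-05). Both genes were higher in both X-labelled mice. *Ucp3* ran the other way with 52.6, 40.2, 68.6 and 87.4 CPM, and *Angptl4*, an inhibitor of lipoprotein lipase, was high in control mice 1 and 4 with 36.5, 15.6, 11.6 and 34.5. Outside this list *Bdh1*, which oxidises ketone bodies, had 251, 403, 513 and 543 CPM (2.15-fold, FDR 0.000155), lowest in control mouse 1. *Ugp2* and *Phkg1* of glycogen metabolism were called with folds of 1.75 and 1.93. By the methods of the study the mice had free access to food, feeding before the hearts were taken is not given, and its part was not tested.

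Genes tied to ventricular load and the fetal programme were examined beside the sarcomere list, in which 10 of 22 genes had an unadjusted p under 0.05 and 2 were called. *Acta1* had 160.4, 441, 885 and 556.7 CPM (5.51-fold, FDR 6.88e-11) and *Myh7* 265, 321, 752 and 382 (2.84-fold, FDR 3.69e-08), the 2 called genes. *Nppa* had 26.1, 28.0, 165 and 66.6 CPM (6.16-fold, FDR 7.47e-12) and *Nppb* 27.2, 66.0, 224 and 190.1 (7.96-fold, FDR 8.13e-13). All 4 genes were highest in control mouse 3 and lowest in control mouse 1. They were brought together from different lists and families, and no fixed list of load or fetal genes was used. Their order of mice was not set beside that of all tested genes, and a shared programme was not tested. *Gm13054* overlaps *Nppa* on the opposite strand and followed it with 19.9, 19.8, 125 and 48.7 CPM, so the counts of the overlap cannot be assigned to 1 strand. With every gene that had a count in the test 7 of the sarcomere genes were called.

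The 17 called cell type markers came from 9 lists. In the mesothelial list *Upk3b* had 0.283, 0.409, 14.8 and 15.3 CPM (FDR 1.55e-07), *Msln* 0.343, 0.833, 10.2 and 11.2 (FDR 2.14e-05) and *Lrrn4* 0.685, 1.32, 9.53 and 10.0 (FDR 0.00219). The k-labelled mice were high in all 3, while *Wt1*, also found in other cells, was not called. In the hepatocyte list the 3 tested genes were called, with *Alb* at 22.5, 86.8, 2.30 and 10.8 CPM (35.2-fold, FDR 3.1e-13) and *Apoa1* also highest in control mouse 2, while *Ahsg* had 8.98, 9.14, 2.84 and 0.975 CPM. With every gene that had a count in the test 4 of 10 hepatocyte and 5 of 6 mesothelial genes were called. The count filter admits a gene that is high in the libraries of 1 mouse alone. With every gene that had a count, the called share was lower in the hepatocyte list and higher in the mesothelial list. Over all cell type markers that share was 18.3% (28 of 153), against 19.1% with the filter. Endothelial calls were *Cldn5* with 78.0, 39.9, 89.4 and 124 CPM (3.15-fold, FDR 1.52e-05), *Kdr* with 129 to 296 and *Cdh5* with 88.1 to 177, each lowest in control mouse 2 and highest in control mouse 4. They were 3 of 12 members, and in smooth muscle *Acta2* and *Myh11* were called, lowest in control mouse 3. The other calls were *Nppa* in the atrial list, *Prox1* and *Lyve1* in the lymphatic list with folds of 1.83 and 2.67, *Cd163* of macrophages with 3.43, the haem synthesis gene *Alas2* of the erythroid list with 2.47, and *Cntn2* of the conduction list with 19.7, 12.4, 6.66 and 1.95 CPM. No pericyte (0 of 9, 0 at an unadjusted p under 0.05) or fibroblast (0 of 12, 4 at an unadjusted p under 0.05) marker was called in edgeR, DESeq2 or limma-voom.

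The sex-linked genes separated control mouse 2 from the other 3. *Xist*, the RNA that silences 1 X chromosome in female cells, had 25, 1128, 2 and 3 counts, and the Y-linked *Eif2s3y*, *Ddx3y* and *Uty* had 332, 358 and 106 counts in control mouse 1 against 2, 4 and 4 in control mouse 2. In control mice 3 and 4 these 3 genes had 487, 552 and 232 and 321, 288 and 138 counts. *Tsix*, which overlaps *Xist*, had 16, 157, 1 and 0 counts. *Kdm5d*, also Y-linked, had 48.4, 6.92, 33.0 and 36.5 CPM. All 5 tested members of the list were called, with FDRs of 4.7e-22 for *Xist* and 2.28e-18 for *Eif2s3y*. Control mouse 1 held Y-linked RNA and also more *Xist* than control mice 3 and 4, with 2, 12 and 11 counts in its 3 libraries.

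The remaining genes with the largest folds at a mean of at least 10 CPM are given singly, and a shared programme was not tested. *Trim12a* had 1.73, 1.54, 21.5 and 29.5 CPM (FDR 4.07e-09), high in both k-labelled mice. *Edn3*, a vasoactive peptide of the endothelin family, had 3.37, 13.7, 60.4 and 33.7 CPM (17.7-fold, FDR 4.59e-09). *Fam107a* and *Arrdc2* were highest in control mouse 2, with 8.31, 28.9, 1.69 and 5.43 CPM and 20.2, 132, 9.71 and 14 CPM.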

How the data were processed

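Bulk RNA-sequencing libraries of 4 control mice, 3 technical libraries each, were analysed, and the 9 libraries of *Notch3*-/- mice were left out. The unit of the values the authors deposited is counts, whole numbers of reads for each gene that were not normalized. The labels name mm10 and CASAVA, while the aligner, counting program, read length, strand and treatment of duplicate reads are not given in the sources used here. Of 46517 gene identifiers, 46005 were in GENCODE vM21 (GRCm38), which gave coordinates and exon lengths, and 512 were not and hold 0.328% of the control counts. The 92 ERCC sequences were left out. Reads were amplified by PCR without molecular identifiers, so precision given by depth covers counting error only.

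Levels are counts per exon base (union of exons) of the summed libraries, scaled to 1000000 in each mouse, with errors as SD over 4 mice. Genes were tested between mice with edgeR 4.0.16 in R 4.3.3 (filterByExpr, TMM, quasi-likelihood F-test, Benjamini-Hochberg adjustment), and called at an FDR under 0.05 and at least 1.5-fold. Error comes from technical libraries, so p-values do not extend to other mice. Variance was divided on log2 CPM with a prior count of 2. Tables and figures were made in Python 3.11.15 with numpy 2.4.6, pandas 2.3.3 and matplotlib 3.10.9.

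Named genes are the 20 with the highest levels, the first 2 members of each family, up to 4 most abundant and up to 4 called members of each list, list members of other tissues and rare cells at 0, the 15 called genes of at least 10 CPM with the largest folds, and *Notch3*; other names were chosen after their values were seen. The members and lists were chosen with earlier results of these data known. Stretches of 50 and 100 bases of GENCODE transcripts were compared between genes on both strands; their lengths were chosen after the values were seen and are not the read length.

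Alternatives were DESeq2 1.42.0, limma-voom (limma 3.58.1), RLE factors, other count filters and fold thresholds, a block for the replicate number, depth as a covariate, thinned counts, each mouse or replicate left out, the X-labelled or k-labelled mice alone, other lengths and denominators, other prior counts, and genes near the count ceiling left out.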

Additional observations from a re-analysis of the deposited data

Results flagged for a closer look

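In 108 sets of 4 mouse values, 9 held a mouse that stood apart from the other 3, and chance alone sets apart about 1 in 20. The mast cell markers summed to 7.85 in control mouse 2 against 18.5 to 19.2 in the other mice. The adipocyte sum was 23.0 in control mouse 4 against 0.921 to 4.01, and the lung epithelial sum 38.3 in control mouse 2 against 1.11 to 5.66. The heat shock sum was 1795 in control mouse 3 against 1362 to 1420.4. Among families the share of *Tnni3* was 99.4% in control mouse 2 and that of *Tnnc1* 99.89% in control mouse 1, against 99.8% to 99.9% and 99.94% to 99.95% in the other mice. The shares of *Pkm* and *Gys1* in control mouse 2 were 99.97% and 99.86%, against 100% in the other mice for both, and beside 3 values of 100% any count of another member sets a mouse apart. *Ppara* held 81.7% in control mouse 3 against 76.1% to 76.9% in the other mice. The ERCC sequences, outside the measured genes, had 13 counts in the control libraries together.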

How the results depend on the processing

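Of the alternatives, leaving out the library with the fewest counts (control mouse 4 replicate 1) and leaving out genes under 200 exon bases were chosen after seeing the data. The 488 called genes became 272 with at least 10 counts required in every library, 93 with counts thinned to the smallest library, 132 with the X-labelled mice alone and 25 with the k-labelled mice alone. Without each replicate in turn they ranged from 221 (without replicate 2) to 490, with 302 without replicate 1. Without each mouse in turn they ranged from 290 (without control mouse 2) to 428, with 314 without control mouse 1. Fewer samples or counts are part of the construction of these settings. Adding the replicate number as a block gave 456 called genes; libraries of the same number did not pair across mice, since the correlations of their deviations had a median of -0.0185 over 18 pairs against 0.00515 over 36 pairs of different numbers. DESeq2, limma-voom, RLE factors, every gene with a count, no fold threshold, a fold of 2, the depth covariate, genes near the count ceiling left out and the library with the fewest counts left out gave 515, 409, 483, 633, 488, 384, 417, 499 and 421.

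The variance share of mice, 5.83%, ranged from 0% to 26.5% without each replicate and from 0.742% to 4.94% without each mouse; the cause was not tested. Its other alternatives gave 5.67% to 5.93%. The share of the 100 highest genes was 14.3% on counts without length, 17.7% on the longest transcript, 16% without mitochondrially encoded genes, 23.2% in the smallest library of each mouse and 9.49% without genes near the count ceiling. The ventricular cardiomyocyte sum was 31212, 20624, 21818, 22418 and 1529 on counts without length, on the longest transcript, among protein-coding genes, in the smallest libraries and without genes near the count ceiling. The ratio of fatty acid oxidation to glycolysis was 1.37 on counts without length and 1.47 without genes near the count ceiling, and the same member led in 31 of 60 families in that setting, which removes 29 leading members. Of single list sums, 154 of the 660 values moved by at least 1 SD and 506 did not, and of leading shares 119 moved and 781 did not. Of called genes of lists, 19 values moved by over 1.5 times and 149 did not. Depth limits the rare lists, in which most genes were too low to be tested.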
